A study of Mus musculus with 40 samples.

Results

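The Trav12 family is a set of mouse T-cell receptor alpha variable (V) segments. Each V segment is a germline exon that supplies the first part of the receptor's variable domain. It becomes usable only after it is joined to a joining (J) segment. The 9 members described here are all V segments of the Tcra tables whose name is TRAV12 with an optional D or N and a number from 1 to 3: TRAV12-1, TRAV12-2, TRAV12-3, TRAV12D-1, TRAV12D-2, TRAV12D-3, TRAV12N-1, TRAV12N-2 and TRAV12N-3. They are 9 of the 111 V segments listed, and 9 of the 106 Trav segments listed in both replicates. All 9 were listed in every Tcra library, and each had counts above 0 in all 4. Names with D or N mark copies made when stretches of the V array were duplicated, so TRAV12-1, TRAV12D-1 and TRAV12N-1 form one subgroup of near-identical segments, and likewise for numbers 2 and 3.

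In the thymus, developing alpha-beta T cells assemble the Tcra locus by joining one Trav to one Traj segment, driven by the Ea enhancer at the far end of the locus. A cell can replace its first join by a later one. As textbook background, first joins favour V segments near the J array and Traj segments at the V side (5′) of that array, and later joins pair V segments farther away with Traj segments farther down (3′). The 9 members form a triplet of copies at each of 3 places in the array, so the same kind of V segment can be read at 3 distances from the J segments.

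The study compared 2 genotypes of C57BL/6 mice, EACBE+/+ (wild type) and EACBE-/-, where EACBE is the allele name the labels give to the CTCF binding site at enhancer Ea. Tcra transcripts of thymocytes from thymus of mice aged 4 to 8 weeks were read by 5′ RACE, which copies receptor RNA from the constant region to the start of the transcript and so needs no V-specific primer. There were 2 Tcra libraries per genotype, out of 40 samples in the series, and the labels do not say whether the 2 came from separate animals or whether animals were pooled. P-values therefore measure the spread between these libraries, which may be technical. A count is a number in a table of V against J segments. The sources used here do not say if it stands for reads or for separate receptors, and RNA per cell cannot be told apart from the number of cells.

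The tables held 10694 and 172388 counts in wild-type replicates 1 and 2, and 19085 and 163953 counts in EACBE-/- replicates 1 and 2. Replicate 1 was thus the shallow library in both genotypes. The replicates also differed in content. Delta-locus V segments (Trdv) made up 2.01% of counts in wild-type replicate 2 and 1.89% in EACBE-/- replicate 2, against 0% in replicate 1 of both. Shares of all Tcra counts include them. The replicates of a genotype differed from each other beyond sampling noise, by a chi-square of 2925 over 105 degrees of freedom in wild type and 4270 over 104 in EACBE-/-. Intervals on shares cover counting error only.

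On chromosome 14 of mm10, with RefSeq positions for the matching assembly GRCm38.p6, each member is annotated as a V segment gene of its own. The D copies lie farthest from the J array. TRAV12D-1 spans 52844560 to 52845041, TRAV12D-2 spans 52915915 to 52916426, and TRAV12D-3 spans 52929789 to 52930282. The N copies lie in the middle, with TRAV12N-1 at 53155607 to 53156088, TRAV12N-2 at 53226884 to 53227400 and TRAV12N-3 at 53240751 to 53241244. The original copies lie nearest the J array, with TRAV12-1 at 53538266 to 53538738, TRAV12-2 at 53616397 to 53616914 and TRAV12-3 at 53621752 to 53622245. From TRAV12D-1, the 22nd of 130 annotated Trav genes, it is 1312 kb to Traj58, and from TRAV12-3, the 105th, it is 535 kb. The 3 D copies each lie 311 kb from the N copy of the same number, and the N copies lie between 381 and 390 kb from the originals. How counts were assigned to near-identical copies is not given in those sources either, so the values of single copies, and of the original, D and N copies summed as classes, depend on an assignment that could not be checked. Sums over the copies of a subgroup do not depend on how counts were split between those copies, but would miss counts dropped as ambiguous.

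The family was a large part of the repertoire in both genotypes. It took 13.7% and 11.2% of all Tcra counts in wild-type replicates 1 and 2, and 14.1% and 12.2% in EACBE-/- replicates 1 and 2. The genotypes overlapped, and the log2 change of EACBE-/- against wild type was 0.08 (SE 0.262, edgeR adjusted p = 0.755). For comparison, 26.3% of the 19 Trav families passed the test in that fit, 5.26% as higher.

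The original copies, those nearest the J array, each took between 1.20% and 3.20% of all Tcra counts. TRAV12-1 took 1.42% and 1.20% of all counts in wild type, against 2.59% and 2.23% in EACBE-/-. TRAV12-2 took 2.45% and 3.20% in wild type, against 1.94% and 3.10%. TRAV12-3 took 1.70% and 1.22% in wild type, against 1.79% and 1.77%. TRAV12-1 and TRAV12-3 were higher in both EACBE-/- libraries than in both wild-type ones, and TRAV12-2 overlapped.

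Among the D copies, TRAV12D-1 took 0.683% and 0.971% of counts in wild type, against 1.17% and 1.32% in EACBE-/-. TRAV12D-2 took 1.63% and 0.993%, against 1.36% and 1.23%. TRAV12D-3 took 3.08% and 1.99%, against 2.92% and 1.59%. TRAV12D-3 was the most used D copy in every library, and it was lower in replicate 2 of both genotypes, while TRAV12D-1 did not overlap between genotypes.

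Summed as a class, the N copies had fewer counts than the original or the D copies in every library. TRAV12N-1 took 0.206% and 0.173% of counts in wild type, against 0.341% and 0.295% in EACBE-/-, the lowest mean of the 9 in both genotypes. TRAV12N-2 took 1.55% and 1.34%, against 0.922% and 0.619%. TRAV12N-3 took 0.963% and 0.0986%, against 1.08% and 0.0579%. TRAV12N-1 was higher and TRAV12N-2 lower in both EACBE-/- libraries. TRAV12N-3 separated the replicates instead: its share was 9.77 times higher in replicate 1 than in replicate 2 of wild type and 18.6 times higher in EACBE-/-, the 4th and 3rd highest such ratios of 106 Trav segments. The other 8 members had ratios between 0.627 and 1.83, so each result that sums the N copies holds a segment whose level follows the replicate number.

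**Figure D1:**
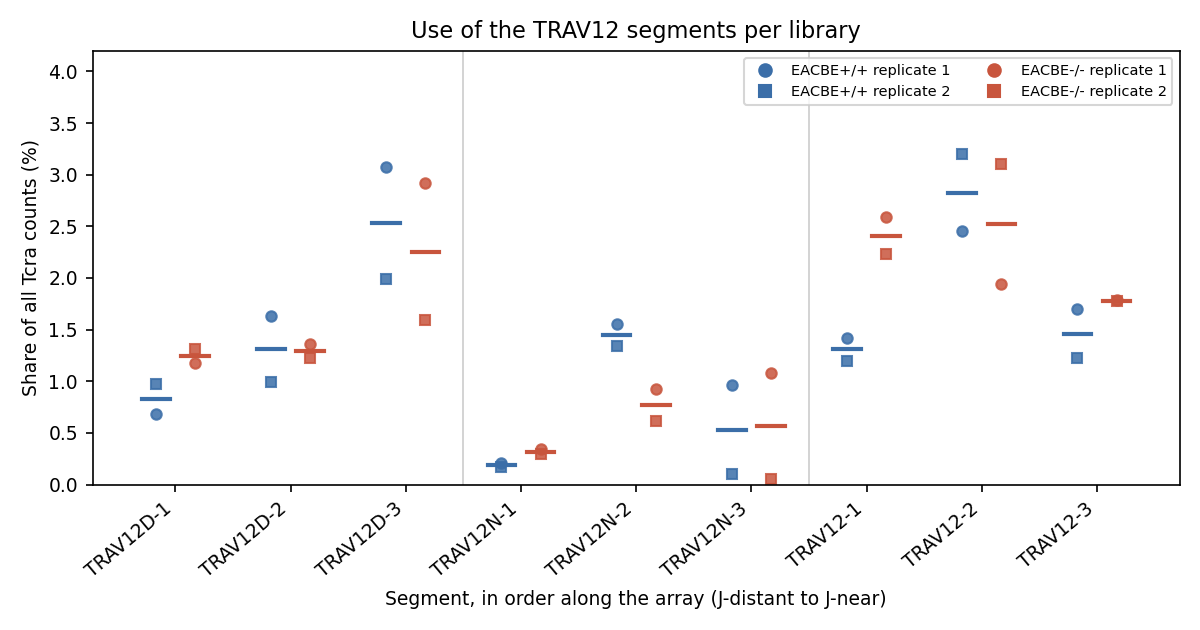
Share of all Tcra counts (%) of each Trav12 segment, ordered along the array from the copies farthest from the J segments (left) to the nearest (right). Points are libraries, horizontal bars are means of 2 libraries; TRAV12N-3 is near 1% in replicate 1 and below 0.1% in replicate 2 of both genotypes.

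By mean level in wild type, TRAV12-2 and TRAV12D-3 came first at 2.83% and 2.53% and overlapped each other. TRAV12-3, TRAV12N-2, TRAV12-1 and TRAV12D-2 followed between 1.46% and 1.31%, each overlapping the next. TRAV12D-1, TRAV12N-3 and TRAV12N-1 came last at 0.827%, 0.531% and 0.189%. In EACBE-/-, TRAV12-2, TRAV12-1, TRAV12D-3 and TRAV12-3 led, at 2.52%, 2.41%, 2.25% and 1.78%, and each overlapped the next. TRAV12-1 thus stood at rank 5 in wild type and rank 2 in EACBE-/-, and TRAV12N-2 at ranks 4 and 7.

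None of the 9 members passed the test of EACBE-/- against wild type, where 5.66% of all segments passed. That test was edgeR quasi-likelihood without a replicate block, with Benjamini-Hochberg adjustment over 106 Trav segments. The log2 change was 0.88 in TRAV12-1 (SE 0.296, adjusted p = 0.218). In TRAV12N-2 it was -0.91 (SE 0.340, adjusted p = 0.252). These were the 2 members with an unadjusted p below 0.05, and DESeq2 also called 0. The result depends on the design: with the replicate number as a block 4 members passed, as given below under processing. The shares of 5 of 9 members did not overlap between genotypes, against 50% of all 106 segments. The median log2 change was 0.12 over the 9 members, 0.04 over 81 segments of the other duplicated Trav subgroups and -0.13 over all 106.

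Summed over copies, the TRAV12-1 subgroup rose in EACBE-/-. Its share was 2.31% and 2.34% of all counts in wild type, against 4.10% and 3.85% in EACBE-/-, a log2 change of 0.77 (SE 0.138, edgeR adjusted p = 0.0235 over 47 subgroups). In that fit 25.5% of subgroups passed, and 6.38% passed as higher. All 3 copies of the subgroup were higher in both EACBE-/- libraries than in either wild-type library. They are the parts of the tested sum, so this adds no support to the call. Of all 106 segments, 50% did not overlap between genotypes, in either direction. TRAV12N-1 had 22 counts in wild-type replicate 1. The call rested on all 4 libraries: without any one of them the log2 change lay between 0.72 and 0.82 and the adjusted p between 0.0881 and 0.211. The median log2 change of all 47 subgroups was -0.16, and TMM factors or DESeq2 scaling moved that median up by 0.17 and 0.19.

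The other subgroups did not pass. TRAV12-2 with its copies took 5.63% and 5.54% of counts in wild type, against 4.23% and 4.94% in EACBE-/- (log2 change -0.28, SE 0.183, adjusted p = 0.303). TRAV12-3 with its copies took 5.74% and 3.31% in wild type, against 5.78% and 3.42% in EACBE-/- (log2 change 0.03, SE 0.391, adjusted p = 0.943). The TRAV12-3 sum differed by replicate number and hardly by genotype. Within the family, the TRAV12-1 subgroup went from 16.9% and 20.95% of Trav12 counts in wild type to 29.1% and 31.5% in EACBE-/-, and the TRAV12-2 subgroup from 41.1% and 49.5% to 30.0% and 40.5%. Neither overlapped between genotypes (exact permutation p = 0.333 for each, the smallest that 2 against 2 libraries allow).

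Split by position, the original copies made up 40.7% and 50.3% of Trav12 counts in wild type, against 44.8% and 58.2% in EACBE-/-. The D copies made up 39.4% and 35.3%, against 38.6% and 33.8%. The N copies made up 19.9% and 14.4%, against 16.6% and 7.96%. The genotypes overlapped in all 3 classes (exact permutation p = 0.667 for each). As a share of the whole table, the original copies were higher in both EACBE-/- libraries, at 6.32% and 7.11% against 5.57% and 5.63% (exact permutation p = 0.333).

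The 43 Traj segments listed were read in 3 lists along the J array: 13 at the 5′ side (TRAJ58 to TRAJ42), 16 in the middle (TRAJ40 to TRAJ22) and 14 at the 3′ side (TRAJ21 to TRAJ2). The 3′ share is the percentage of a segment's counts that were joined to the 3′ list. Summed per class, the original copies had 3′ shares of 10.2% and 20.5% in wild type, against 11.4% and 15.2% in EACBE-/-. The D copies had 40.3% and 43.2% in wild type, against 21.7% and 26.4% in EACBE-/-. The N copies had 38.8% and 57.0% in wild type, against 19.7% and 26.2% in EACBE-/-. In every library both sets of distant copies were joined to 3′ Traj segments more often than the original copies.

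The difference D minus original was 30.0 and 22.7 percentage points in wild type, against 10.4 and 11.2 in EACBE-/-, a mean of 18.6 ± 9.49 (SD, n = 4). The difference N minus original was 28.6 and 36.5 points in wild type, against 8.33 and 10.99 in EACBE-/-, a mean of 21.1 ± 13.7 (SD, n = 4). Both were positive in 4 of 4 libraries, which gives the smallest p that an exact sign-flip test over 4 libraries allows, 0.13. D minus N was positive in 3 libraries and -13.8 points in wild-type replicate 2 (mean -2.53 ± 7.56, SD, n = 4, exact sign-flip p = 1). The 5′ share differed in the opposite direction, but not by the same amounts, because the middle list differed too. In the middle list, D minus original was -6.97 and -7.25 points in wild type, against 7.03 and -0.649 in EACBE-/-. There N minus original was -9.86 and -14.0 points, against 7.41 and -1.98. The 5′ share was lower than in the original copies in 4 of 4 libraries. The mean difference was -16.6 ± 5.17 points in the D copies and -16.5 ± 5.70 points in the N copies (SD, n = 4, exact sign-flip p = 0.13 for each).

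Within subgroups, the D and N copies also had the higher 3′ share, with the 1 exception given below. TRAV12D-1 exceeded TRAV12-1 in 3′ share by 18.4 and 15.4 points in wild type and by 1.61 and 2.95 points in EACBE-/-. TRAV12D-2 exceeded TRAV12-2 by 35.5 and 24.7 points, and by 6.95 and 13.1 points. TRAV12D-3 exceeded TRAV12-3 by 33.1 and 26.9 points, and by 14.6 and 17.6 points. The TRAV12D-1 gap was the smallest of these in each library. For the N copies the gap was 35.5 and 24.0 points for number 1, 22.7 and 37.9 for number 2, and 39.2 and 33.8 for number 3 in wild type. In EACBE-/- it was -6.72 and 3.87 for number 1, 9.35 and 13.4 for number 2, and 11.9 and 13.0 for number 3. The 1 negative value, in EACBE-/- replicate 1, rests on 65 counts of TRAV12N-1, whose 3′ share there was 4.62% (95% Wilson interval 1.58 to 12.7%).

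**Figure D2:**
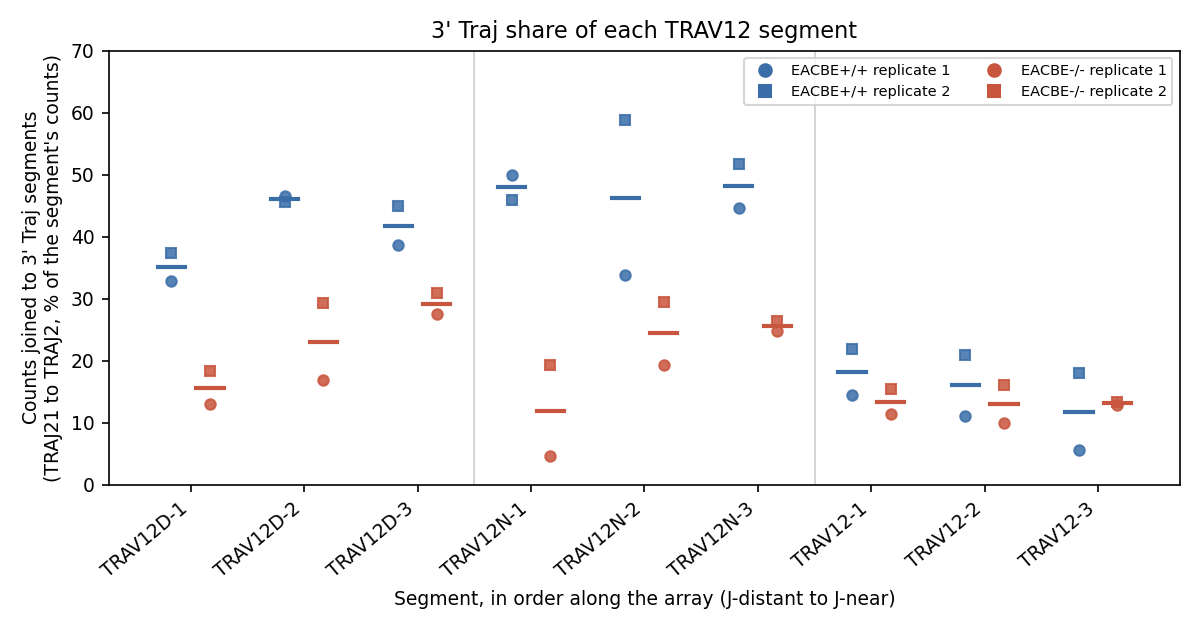
Percentage of each Trav12 segment's counts that were joined to 3′ Traj segments (TRAJ21 to TRAJ2), with segments ordered along the array. Points are libraries, horizontal bars are means of 2 libraries; the 6 D and N copies lie between 32.9% and 58.8% in wild type and between 4.62% and 30.9% in EACBE-/-, while the 3 original copies lie at 21.9% or less in all libraries.

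Over the whole 3′ list, the share was lower in both EACBE-/- than in both wild-type libraries in all 6 D and N copies. The same held in 0 of the 3 original copies. Of the 91 V segments with at least 10 counts in every library, 72.5% were lower in that sense, so 6 of 9 members is near the background. TRAV12D-1 had 3′ shares of 32.9% and 37.3% in wild type, against 12.9% and 18.3% in EACBE-/-. TRAV12D-2 had 46.6% and 45.6%, against 16.9% and 29.2%. TRAV12D-3 had 38.6% and 44.9%, against 27.5% and 30.9%. The difference was least in TRAV12D-3, the D copy with the most counts.

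TRAV12N-1 had 3′ shares of 50.0% and 46.0% in wild type, the first from 22 counts (95% Wilson interval 30.7 to 69.3%), and 4.62% and 19.2% in EACBE-/-. TRAV12N-2 had 33.7% and 58.8%, against 19.3% and 29.5%. TRAV12N-3 had 44.7% and 51.8%, against 24.8% and 26.3%. All 3 N copies had lower 3′ shares in EACBE-/-, and within EACBE-/- replicate 1 they ranged from 4.62% in TRAV12N-1 to 24.8% in TRAV12N-3.

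In the original copies the genotypes overlapped in the share of the whole 3′ list. TRAV12-1 had 3′ shares of 14.5% and 21.9% in wild type, against 11.3% and 15.3% in EACBE-/-. TRAV12-2 had 11.1% and 20.96%, against 9.97% and 16.1%. TRAV12-3 had 5.49% and 17.9%, against 12.9% and 13.3%. In all 3, wild-type replicate 2 was the highest library. The median change of EACBE-/- against wild type was -2.98 points over the originals, -19.5 over the D copies, -22.7 over the N copies and -12.9 over all 91 segments. Single Traj segments at the 3′ end did fall in the original copies summed. TRAJ7 took 1.34% and 1.88% in wild type, against 0.580% and 1.05% in EACBE-/-. TRAJ4 took 0.839% and 1.81%, against 0.580% and 0.506%. TRAJ2 took 0.336% and 1.06%, against 0.249% and 0.155%. The other Traj segments of the 3′ list overlapped between genotypes in these copies.

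The 5′ share was higher in both EACBE-/- libraries in 8 of 9 members, all but TRAV12-3, against 49.5% of the 91 segments. It went from 35.6% and 35.4% to 43.7% and 39.9% in the original copies. It went from 12.5% and 20.0% to 26.3% and 29.3% in the D copies, and from 16.8% and 12.9% to 28.0% and 30.9% in the N copies (exact permutation p = 0.333 for each class). The largest single change was in TRAV12N-2, from 17.5% and 11.7% to 37.5% and 29.3%. TRAV12-3 went the other way on average, with 44.5% and 38.0% in wild type, against 34.9% and 40.6% in EACBE-/-.

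The gap in 3′ share between distant and near copies was smaller in both EACBE-/- libraries. D minus original had a mean of 26.4 points in wild type against 10.8 in EACBE-/-, a difference of -15.6. N minus original had a mean of 32.6 against 9.66, a difference of -22.9. Neither overlapped between genotypes (exact permutation p = 0.333, the smallest possible). The gap in 5′ share overlapped for the D copies, at -23.1 and -15.4 points in wild type, against -17.4 and -10.6 in EACBE-/- (exact permutation p = 0.667). For the N copies it did not overlap, at -18.7 and -22.5 points, against -15.7 and -9.01 (exact permutation p = 0.333). When the same was asked of single Traj segments, in an edgeR fit of genotype by class with the library as a block, 0 of 43 passed for D minus original (lowest adjusted p 0.496, 1 with an unadjusted p below 0.05) and 0 of 43 for N minus original (lowest adjusted p 0.179, 9 with an unadjusted p below 0.05). In the N fit, the genotype term was negative in all 14 Traj segments of the 3′ list and positive in all 13 of the 5′ list, values that share their libraries and are a description only.

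Compared within libraries over both genotypes, the D copies differed from the original copies in the use of 33 of 43 Traj segments (76.7%, edgeR adjusted p below 0.05, library as a block). All 14 of the 3′ list were higher and all 13 of the 5′ list were lower. These calls pool both genotypes and do not hold in each library. In EACBE-/- replicate 1, TRAJ4 took 0.384% of D counts against 0.580% of original counts, and TRAJ2 took 0.0961% against 0.249%. In EACBE-/- replicate 2 both were higher in the D copies, at 0.812% against 0.506% and 0.221% against 0.155%. Of the 16 in the middle, 3 were higher, 3 lower and 10 did not pass. The median log2 difference was 1.02 in the 3′ list and -0.75 in the 5′ list. TRAJ5 differed most, at 2.43% and 2.64% of D counts in wild type, against 0.480% and 0.502% in EACBE-/-, against 0.168% and 0.886%, then 0.332% and 0.283%, of original counts (log2 difference 1.40, SE 0.272, adjusted p = 0.000279). The original copies had 596 counts in wild-type replicate 1 and 1206 in EACBE-/- replicate 1. Their TRAJ5 shares there rest on few counts. After TRAJ5, TRAJ9, TRAJ15, TRAJ12, TRAJ11, TRAJ13, TRAJ6, TRAJ7, TRAJ2 and TRAJ16 followed, with log2 differences from 1.24 down to 0.98. Without wild-type replicate 2 the count of Traj segments passing was 21 of 40 tested, and without the TRAV12-3 subgroup it was 8 of 43.

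The N copies differed from the original copies in 31 of 43 Traj segments (72.1%). In the 3′ list 13 of 14 were higher, all but TRAJ16, and in the 5′ list 12 of 13 were lower, all but TRAJ58. These calls pool both genotypes, and TRAJ2, called higher, was higher in the N copies in wild type only. It took 0.687% and 2.48% of N counts there, against 0.336% and 1.06% of original counts. In EACBE-/- it took 0% and 0.0627% of N counts, against 0.249% and 0.155% of original counts. In the middle 2 were higher and 4 lower. The largest difference was in TRAJ15, which took 5.15% and 5.07% of N counts in wild type, against 3.36% and 3.89% in EACBE-/-, against 1.17%, 1.65%, 1.58% and 1.67% of original counts (log2 difference 1.43, SE 0.233, edgeR adjusted p = 3.26e-05). TRAJ9 and TRAJ4 had log2 differences of 1.41 and 1.40, TRAJ12, TRAJ13, TRAJ7, TRAJ5, TRAJ17 and TRAJ6 ranged from 1.34 down to 1.11, and TRAJ53 was lower by a log2 difference of -1.21. Without wild-type replicate 2 the count passing was 6 of 40 tested, and without the TRAV12-2 subgroup 19 of 36.

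The D and N contrasts share the original copies as their reference. Of the Traj segments that passed, 15 were higher in both, 15 were lower in both and 0 went opposite ways. D against N gave 0 of 43 (edgeR, lowest adjusted p 0.641; 1, TRAJ30, with an unadjusted p below 0.05; DESeq2 also 0). This leaves a difference between D and N copies undetected over these 4 libraries and does not show that they are alike.

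**Figure D3:**
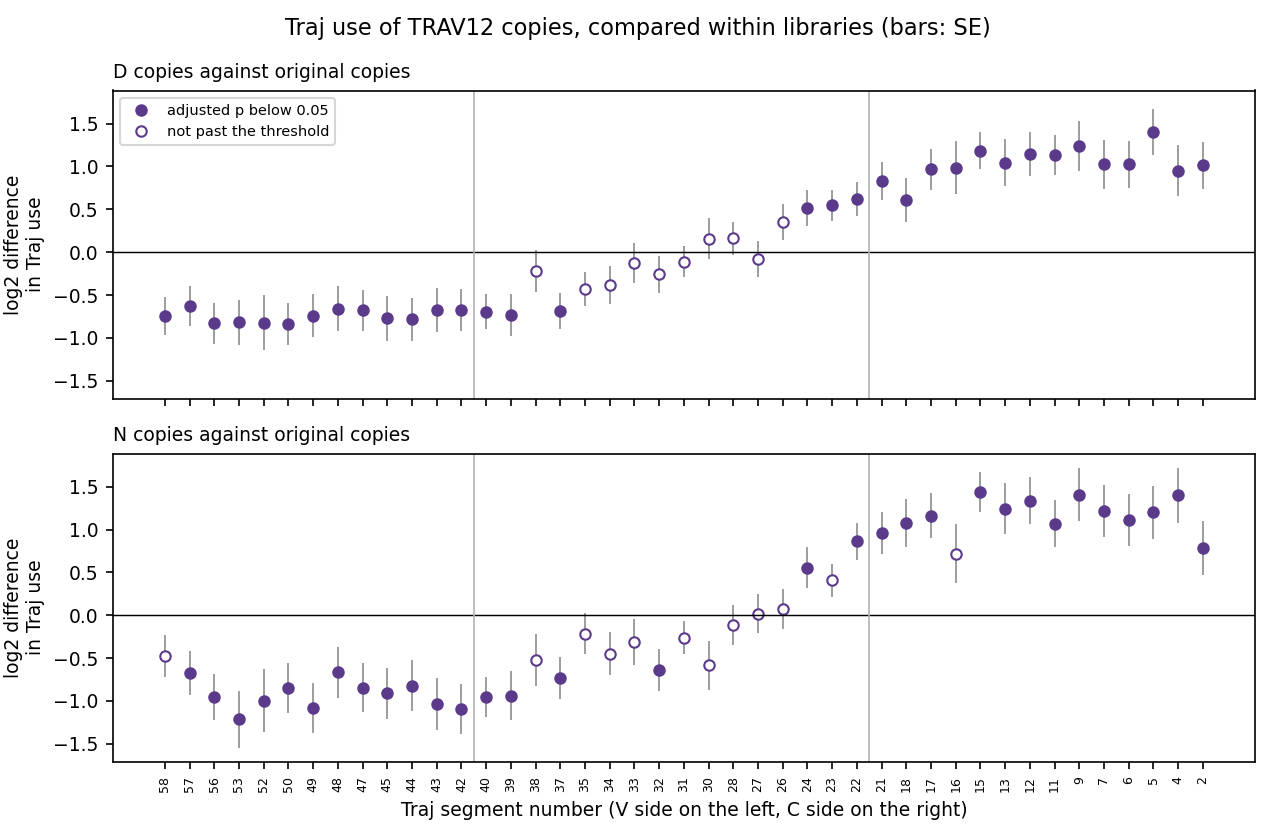
Log2 difference in Traj use (vertical axis) of D copies (top) and N copies (bottom) against the original Trav12 copies, by Traj segment from the V side to the C side, compared within 4 libraries. Bars are SE and filled points have an adjusted p below 0.05; vertical lines separate the 5′, middle and 3′ lists, and filled points pass from negative on the left to positive on the right.

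Averaged over the 4 libraries, the original copies were joined most to TRAJ31 (5.17 ± 0.260%, SD, n = 4), TRAJ37 (4.66 ± 1.71%) and TRAJ40 (4.55 ± 0.957%). The D copies were joined most to TRAJ23 (5.65 ± 1.19%), TRAJ31 (5.01 ± 1.36%) and TRAJ26 (4.08 ± 0.873%). The N copies were joined most to TRAJ22 (5.15 ± 1.24%), TRAJ23 (4.74 ± 1.56%) and TRAJ31 (4.53 ± 0.973%). All of these lie in the middle list, and TRAJ31 is shared by the 3 classes. The leading partners differed between the wild-type libraries. The D copies were led by TRAJ23, TRAJ12 and TRAJ15 in replicate 1 (6.60%, 5.73% and 5.56% of 576 counts) and by TRAJ6, TRAJ4 and TRAJ31 in replicate 2 (4.44%, 4.29% and 4.07% of 6809 counts). The N copies were led by TRAJ22, TRAJ15 and TRAJ12 in replicate 1 (6.53%, 5.15% and 5.15% of 291 counts) and by TRAJ4, TRAJ12 and TRAJ7 in replicate 2 (6.51%, 5.54% and 5.50% of 2781 counts).

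**Figure D4:**
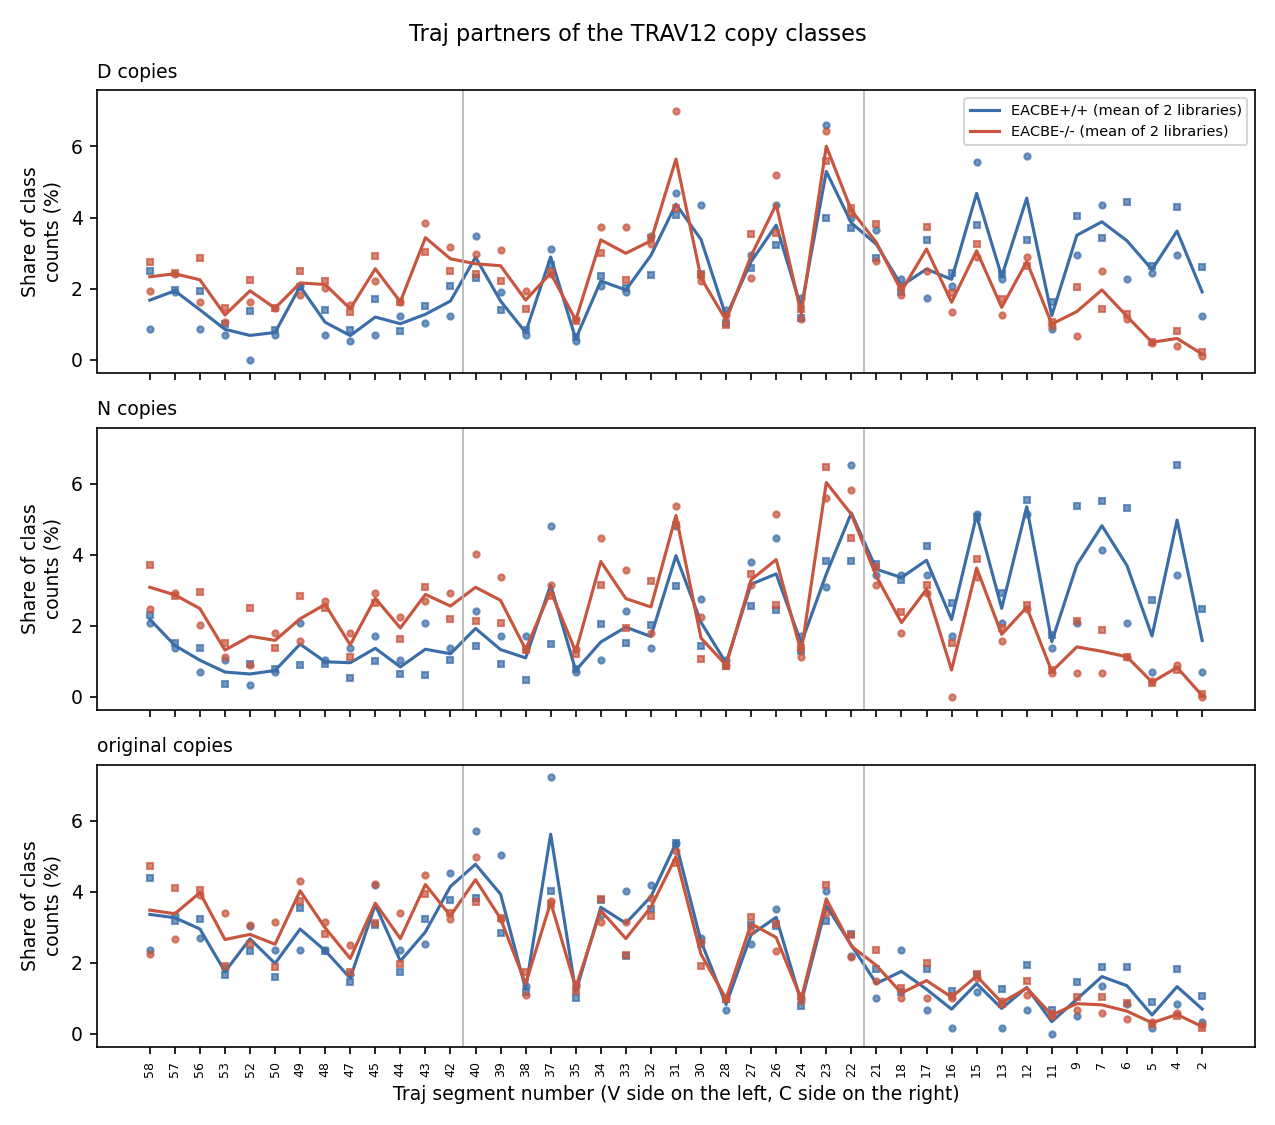
Share of each copy class's counts (%, vertical axis) joined to each Traj segment, from the V side (left) to the C side (right), for D, N and original Trav12 copies. Circles are replicate 1, squares replicate 2, and lines are means of 2 libraries per genotype. Vertical lines separate the 5′, middle and 3′ lists. At the far right, from TRAJ9 to TRAJ2, the wild-type line lies above the EACBE-/- line in all panels, by less in the original copies. For TRAJ4 the means are 3.62% against 0.598% in D, 4.97% against 0.824% in N and 1.33% against 0.543% in original copies.

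Of the 387 possible pairs of a member and a Traj segment, 317 and 381 had a count in wild-type replicates 1 and 2, and 352 and 378 in EACBE-/- replicates 1 and 2. The test covered 295 of them, and 8 passed, 7 lower and 1 higher in EACBE-/- (edgeR over 2417 Trav-Traj pairs, of which 3.35% passed, 2.98% lower and 0.372% higher). The 7 lower pairs all used TRAJ7, TRAJ6, TRAJ4 or TRAJ2, the 3′ end of the J array. The count filter could be met in 1 genotype alone, and most of the lower pairs met it through wild type. Without the filter, 12 of 387 pairs passed, 11 lower and 1 higher. The libraries of the 2 genotypes did not overlap in any of the 8, which adds no support to the test that picked them.

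TRAV12N-2 with TRAJ4 had 6 and 166 counts in wild type, against 2 and 7 in EACBE-/-, out of the table totals above (log2 change -3.90, SE 0.728, edgeR adjusted p = 0.00102). TRAV12N-2 with TRAJ6 had 4 and 126, against 2 and 14 (log2 change -2.77, adjusted p = 0.0184). TRAV12N-2 with TRAJ7 had 5 and 128, against 1 and 23 (log2 change -2.43, adjusted p = 0.0271). TRAV12N-2 was the member with most such pairs among those tested. Of N copies only 16 pairs with the 3′ list met the count filter, so this count depends on which pairs could be tested. Among the D copies, TRAV12D-3 with TRAJ4 had 10 and 161, against 4 and 26 (log2 change -2.43, adjusted p = 0.0194).

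TRAJ2, the last Traj segment listed, was lower with 3 members. With TRAV12D-3 it had 2 and 85 counts in wild type, against 1 and 6 in EACBE-/- (log2 change -3.30, edgeR adjusted p = 0.0230). With TRAV12D-2 it had 4 and 55, against 0 and 5 (log2 change -3.63, adjusted p = 0.0194). With TRAV12-2, the only original copy among the lower pairs, it had 2 and 59, against 0 and 4 (log2 change -3.76, adjusted p = 0.0194). The higher pair was TRAV12-1 with TRAJ43, a 5′ segment, at 2 and 58 counts in wild type, against 26 and 178 in EACBE-/- (log2 change 1.98, SE 0.522, adjusted p = 0.0268). Replicate 1 gives few counts for each pair, and the count passing depended on the libraries and the tool: it was 1 with DESeq2, 0 without wild-type replicate 2, 0 without EACBE-/- replicate 2 and 2 without EACBE-/- replicate 1.

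Over the tested pairs of the 3′ list, the median log2 change was 0.06 in the original copies (34 pairs), -0.58 in the D copies (40 pairs) and -1.38 in the N copies (16 pairs), and -0.57 over the 646 such pairs of all Trav segments. Over the pairs of the 5′ list it was 0.44, 0.91 and 0.36, and 0.33 over all Trav segments. Only pairs past the count filter enter these medians, and a pair could meet it through 1 genotype alone. Fewer N pairs met it, so the medians do not compare the classes on like sets of pairs. When counts were summed per member and Traj list, 1 of 27 member values passed, TRAV12N-2 with the 3′ list, against 4.53% of 309 values over all Trav segments. It had 56 and 1361 counts in wild type, against 34 and 299 in EACBE-/-, which is 0.524% and 0.789% of all counts against 0.178% and 0.182% (log2 change -1.88, SE 0.384, edgeR adjusted p = 0.05 after rounding). That call sat on the threshold and was lost with TMM factors (adjusted p = 0.0532), and without wild-type replicate 2, EACBE-/- replicate 1 or EACBE-/- replicate 2 (0.151 to 0.197).

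Other duplicated Trav subgroups showed the same direction. Of 25 other subgroups with an original and a D copy at 10 or more counts per library, the D copy had the higher mean 3′ share in 23, with a median gap of 12.1 points, against a median of 20.1 over the 3 Trav12 subgroups. Of 19 with an N copy the mean was higher in 19, with a median gap of 18.3 points, against 20.8 in Trav12. The gap was narrower in EACBE-/- in 22 of the 25 and 19 of the 19, and in all 3 Trav12 subgroups for both copies. The Trav12 gaps lay within the range of the other subgroups, which ran from -5.08 to 35.6 points for D copies and from 9.11 to 36.2 for N copies.

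The V segments outside the family with the most similar J partners were mostly of the same class. Over 43 Traj shares averaged across the 4 libraries, among 94 segments with at least 100 counts, the original copies were most like TRAV14-1 (Pearson r = 0.938), TRAV13-1 (0.918) and TRAV13-2 (0.893). The D copies were most like TRAV14D-2 (0.898), TRAV3D-3 (0.895) and TRAV6D-7 (0.878). The N copies were most like TRAV14D-2 (0.862), TRAV3N-3 (0.859) and TRAV9N-3 (0.843). TRAV14-1, at 53554057 to 53554558, lies between TRAV12-1 and TRAV12-2, and TRAV14D-2, at 52948668 to 52949169, lies on the J side of TRAV12D-3. These correlations run across Traj segments within the same libraries and are a description, since all V segments share each library's depth and J array.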

How the data were processed

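The authors deposited each repertoire library as whole-number counts of V against J segments. The genome build was mm10, per the submitters' processing notes, which also list Juicer 1.13.02, HiC-Pro 2.11.1, bedtools 2.26.0, Bowtie2 (2.3.4.3 and 2.20.8) and cutadapt 0.4.4. What assigned segments is not given in those sources. The deposited Hi-C boundary lists carry a score per 20000-base interval.

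Counts were summed and tested with edgeR 4.0.16 (glmQLFit, glmQLFTest, R 4.3.3), with library sizes set to table totals, no TMM factors, filterByExpr defaults (10 and 15) and Benjamini-Hochberg adjustment over all features at 0.05. Copy classes were compared in 12 columns, each library split into 3 classes. Single shares had two-sided exact permutation tests. The named items were all members, passing member pairs (up to 8), passing Traj segments (up to 10), and the 3 leading partners and 3 most similar V segments per class. Members, lists and tests were chosen with earlier results of these data known. Alternatives were TMM, DESeq2 1.42.0, no filter, left-out libraries or subgroups, replicate blocks, other totals, each pair counted once, another J split and equal weights. The fit by Traj list and the shares without TRAV12-3 were added after seeing the data. Fits were run on simulated counts that held no replicate effect, unlike these libraries, so that run checks the code and not the error rate here. Coordinates came from RefSeq, where all 9 members matched, out of 10 annotated Trav12 genes. Trb tables, chromatin immunoprecipitation and 4C libraries were not used here.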

Additional observations from a re-analysis of the deposited data

How the results depend on the processing

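With the replicate number as a block, 4 members (edgeR adjusted p = 0.000199 for TRAV12-1, 0.00156 for TRAV12N-2, 0.0238 for TRAV12D-1 and 0.0399 for TRAV12N-1), 2 summed subgroups, 79 pairs and 13 of the values by Traj list passed, and the family's log2 change was 0.095 (adjusted p = 0.0157). The labels do not say that a number marks a shared animal or batch, and depth also follows it: deviations of replicate 1 from replicate 2 correlated between genotypes at 0.849 over 106 Trav segments and 0.962 over the 9 members. Leaving out 1 library gave 0 summed subgroups, 0 to 11 pairs, 0 to 2 values by Traj list, a family log2 change of -0.056 to 0.23, and 21 to 32 Traj segments for D and 6 to 31 for N against original copies. With DESeq2 1 pair and 2 values by Traj list passed, and with TMM factors or totals over segments listed in both replicates 0 values by Traj list did. Without TRAV12-3 the D comparison gave 8, and without TRAV12-2 the N comparison 19.

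Directions of members that did not pass were unstable when 1 library was left out: TRAV12D-2 (-0.33 to 0.38, and 0.048 with TMM, 0.011 with DESeq2, 0.069 with the block), TRAV12D-3 (-0.66 to 0.21), TRAV12N-3 (-3.15 to 2.501, and -0.29 with the block), TRAV12-2 (-0.54 to 0.13) and the summed TRAV12-3 (-0.39 to 0.47). Without TRAV12-3 the D share of family counts changed by 2.68 points in place of -1.09, and the D 3′ share by -22.7 in place of -17.7. Counting each V-J pair once gave 1.89 and -1.89 points for the TRAV12-1 and TRAV12-2 subgroups, 2.10 and 1.53 for the D and N gaps in 3′ share, -7.02 and -13.6 for their genotype differences, and -2.51 and -9.05 for the D and N copies. That setting holds little in the deep libraries, where 7 of 9 wild-type members had all 43 Traj segments. Replicate 1, with 22 to 329 counts per member in wild type, limits the precision of shares and pairs.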

Other observations

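Trav segments can also join to Trd, the delta locus that lies inside Tcra, so the Trd tables were read for the same 9 members. In replicate 1 none was listed, where 3 counts would be 0.172% of the 1744 wild-type and 0.0534% of the 5615 EACBE-/- Trd counts. In replicate 2 the family had 32 of 28093 counts in wild type (0.114%, 95% Wilson interval 0.0807 to 0.161%) and 77 of 47158 in EACBE-/- (0.163%, 0.131 to 0.204%). TRAV12-3 led in both, with 18 and 31 counts, and the original copies together with TRAV12D-3 held most of the rest. TRAV12N-1, TRAV12N-2 and TRAV12N-3 had 0 counts in both, where 3 counts would be 0.0107% in wild type and 0.00636% in EACBE-/-. With the family listed in 1 library per genotype there was no test.

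The Hi-C boundary lists, 1 library per genotype, held no boundary within the 777686 bases from TRAV12D-1 to TRAV12-3 in either genotype, out of 400 on chromosome 14 in wild type and 533 in EACBE-/-. The nearest on the D side was the same interval in both, 52620001 to 52640000, 205 kb from TRAV12D-1. The nearest on the J side lay 57.8 kb beyond TRAV12-3 in wild type and 77.8 kb beyond it in EACBE-/-, in adjacent intervals.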
